A study of Mus musculus with 70 samples.

Results

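The interferon regulatory factors (IRFs) are transcription factors that share a DNA-binding domain recognising repeats of the bases GAAA in the promoters of interferon-responsive genes. The 8 genes Irf1, Irf2, Irf3, Irf4, Irf5, Irf7, Irf8 and Irf9 were taken by name from a mouse gene count table of 55011 genes, and all 8 were found in it. Irf3, Irf5 and Irf7 lie downstream of the sensors of foreign nucleic acid and switch on the interferon genes themselves. Irf9 joins Stat2 in the complex ISGF3, which carries the type I interferon signal to the nucleus. Irf1 is an activator that is itself induced by interferon gamma and by NF-kB, and Irf2 can occupy the same sites and oppose it. Irf4 and Irf8 are best known from lymphocytes, dendritic cells and macrophages, where they act with partners such as Spi1 and Batf.

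The 70 libraries measured RNA from mouse skeletal muscle in 6 experiments and 28 groups. Most came from MmSCs, the stromal cells of hindlimb muscle, sorted by flow cytometry in 2 passes at 1000 cells a library. Of the 28 groups, 15 had 3 libraries, 12 had 2 and 1 had a single library. In the first experiment (21 libraries), uninjured C57BL/6J mice received cytokines into the peritoneum. Oncostatin M (Osm) was given together with TNFa, Il-17A and Il-1b as a mix and followed to 2, 4 and 8 h, each cytokine or a pair with Osm to 2 h, and PBS served as the control. The labels give no time for the PBS injection, and they do not say whether the PBS libraries were made beside the time course or beside the single cytokines. In the second experiment (24 libraries), CD31+ cells, CD45+ cells, MmSCs and satellite cells (MuSCs) were sorted from C57BL/6J muscle, either uninjured or 1 day after injury with cardiotoxin, a toxin of cobra venom by which myofibres are destroyed. In the third (6 libraries), Thy1.1+ and Thy1.1- MmSCs came from Il6RD mice, an Il-6 reporter and depleter strain, 12 h after cardiotoxin. The fourth (6 libraries) measured whole tibialis anterior muscle of C57BL/6J mice 7 days after cardiotoxin, with injections of an antibody to Cxcl5 (aCxcl5) or of IgG, from 2 ng of RNA a library. The fifth (8 libraries) followed MmSCs of DMDmdx mice, which carry the dystrophin mutation of the mdx model, at 2.5, 7 and 12.5 weeks of age with no toxin, where the sample titles give the oldest group as 12 weeks and its other labels as 12.5. The last (5 libraries) compared MmSCs of Il1b-KO mice with Il1b-WT littermates 1 day after cardiotoxin. Ages are given only for the DMDmdx mice, and for doses, the promoter of the Il6RD reporter and the mice pooled in a library no source used here gives a value.

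Library totals ran from 2252373 to 8408842 counts. The sorted populations carried the markers of their labels. In uninjured muscle, Ptprc reached 714 to 886 CPM (counts scaled to the library total) in CD45+ cells and at most 1.37 CPM in MmSCs, Pecam1 1961 to 2260.0 CPM in CD31+ cells, Pdgfra 537 to 618 CPM in MmSCs and Pax7 509.7 to 650.4 CPM in MuSCs. Il6 was 52.7 to 289.9 CPM in Thy1.1+ cells and 22.0 to 67.2 CPM in Thy1.1- cells. Il1b gave 1 count over the 3 Il1b-KO libraries and 7 counts over the 2 Il1b-WT libraries, so at this depth that genotype was checked near the limit of detection. A few libraries stood apart in their markers. In CD31+ injured replicate 1 a pan-leukocyte list of 8 genes summed to 167 CPM, against 24.1 and 24.2 CPM in the other two. In the aCxcl5 group the B cell list summed to 543 CPM in replicate 3 against 52.6 and 72.7 CPM, and the neutrophil list to 116 CPM in replicate 2 against 16.1 and 18.6 CPM. Thy1.1- replicate 3 was the highest of the 6 reporter libraries in 7 of the 8 genes, for example Irf1 at 102 CPM against 33.2 and 36.6 CPM. Over genes with enough counts, replicate 3 lay apart in both reporter groups. Its chi-square per degree of freedom against replicates 1 and 2 was 53.3 and 56.0 in Thy1.1+ cells and 40.3 and 33.4 in Thy1.1- cells. Between replicates 1 and 2 it was 8.39 and 9.66. No replicates agreed within sampling noise. The labels do not say that replicates came from separate mice, so p-values measure the spread between these libraries, which may be technical.

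In GRCm38 (GENCODE M21) the 8 genes lie on 6 chromosomes. Irf1 (ENSMUSG00000018899.16) spans chr11:53770014-53778374 on the plus strand, Irf2 (ENSMUSG00000031627.9) chr8:46739732-46847458 on the plus strand and Irf3 (ENSMUSG00000003184.15) chr7:44997648-45002848 on the plus strand. Irf4 (ENSMUSG00000021356.10) spans chr13:30749226-30766976 on the plus strand, Irf5 (ENSMUSG00000029771.12) chr6:29526625-29541871 on the plus strand and Irf7 (ENSMUSG00000025498.15) chr7:141262706-141266481 on the minus strand. Irf8 (ENSMUSG00000041515.10) spans chr8:120736358-120756694 and Irf9 (ENSMUSG00000002325.15) chr14:55603571-55610030, both on the plus strand. Exons of 5 of the 8 overlap those of a neighbour. The largest overlap is Irf5 with Tnpo3 on the opposite strand, 411 bases or 14.1% of the exonic length of Irf5, and the others cover 1.19% (Irf7 with Phrf1) to 3.4% (Irf1 with Gm17334). No source used here says whether counting used strand, and reads in these stretches cannot be assigned to one gene.

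Promoters are shown for the 3 members with a match to a searched motif. Irf5 and Irf9, which were also called upward after both Il-1b and TNFa, had no match. The windows of RefSeq (GRCm38.p6) run from 250 bases before a gene's start to 50 after it. The 8 genes have 11 of them, with a second one each for Irf1, Irf8 and Irf9. Both Irf9 windows (chr14:55603735-55604034 and chr14:55604329-55604628) begin after its GENCODE start at 55603571. The bases before that start were therefore not searched. Both strands were searched for the ISRE (GAAANNGAAA, bound by IRFs and ISGF3), the GAS (TTCNNNGAA, bound by STAT dimers) and the kB motif of NF-kB. The 250 bases before the start are printed 5′ to 3′ on the plus strand, with matches in capitals, from chr11:53769764-53770013 (Irf1), chr8:46739495-46739744 (Irf2) and chr8:120736108-120736357 (Irf8).
Irf1: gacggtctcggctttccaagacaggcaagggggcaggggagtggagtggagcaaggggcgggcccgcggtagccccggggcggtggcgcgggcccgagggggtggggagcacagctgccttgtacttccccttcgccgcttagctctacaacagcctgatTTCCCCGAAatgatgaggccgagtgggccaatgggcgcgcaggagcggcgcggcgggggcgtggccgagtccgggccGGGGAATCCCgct
Irf2: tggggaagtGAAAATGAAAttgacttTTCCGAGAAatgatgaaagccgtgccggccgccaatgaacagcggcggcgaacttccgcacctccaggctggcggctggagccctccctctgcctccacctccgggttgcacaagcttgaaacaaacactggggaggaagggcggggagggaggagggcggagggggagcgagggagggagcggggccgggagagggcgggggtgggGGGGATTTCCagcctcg
Irf8: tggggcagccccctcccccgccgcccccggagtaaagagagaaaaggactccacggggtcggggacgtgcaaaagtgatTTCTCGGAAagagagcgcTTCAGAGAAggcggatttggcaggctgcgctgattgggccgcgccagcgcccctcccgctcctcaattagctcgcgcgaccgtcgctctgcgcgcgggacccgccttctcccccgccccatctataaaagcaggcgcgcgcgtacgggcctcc
In the Irf1 window, TTCCCCGAA is a GAS match at positions -90 to -82 from the start and GGGGAATCCC a kB match at -13 to -4. In the Irf2 window, GAAAATGAAA is an ISRE match at -241 to -232, TTCCGAGAA a GAS match at -224 to -216 and GGGGATTTCC a kB match at -17 to -8. The Irf8 window has 2 GAS matches, TTCTCGGAA at -171 to -163 and TTCAGAGAA at -153 to -145. No motif overlapped another, and the other 8 windows, those of Irf3, Irf4, Irf5, Irf7 and Irf9 included, held none of these letters. Of 32817 mouse windows of this length, 3.43% hold an ISRE match, 8.29% a GAS match and 8.46% a kB match. A match describes the letters and is no evidence of binding.

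At 2 h after the 4-cytokine mix, 5 of the 8 genes had risen in MmSCs and none had fallen. The 5 were Irf7, Irf8, Irf1, Irf9 and Irf2. Of all 15965 genes tested in this experiment 38.5% passed an adjusted p of 0.05 (edgeR's quasi-likelihood test), and 20.5% passed upward. The median log2 change was 1.85 over the 8 members and -0.06 over all genes. Levels are CPM scaled within the experiment, with SD over replicates, and changes are log2 differences with their SE.

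Irf7, the amplifier of the type I interferon genes, measured 22.5 and 12.4 CPM after PBS and 404 and 306 CPM at 2 h after the mix. The libraries of the mix were both far above those of PBS, and the change was 4.34 ± 0.25 on the log2 scale (adjusted p = 1.8e-11). Irf9, the DNA-binding subunit of ISGF3, went from 51.7 and 63.8 CPM to 266 and 275 CPM (2.23 ± 0.16, adjusted p = 8.0e-10).

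Irf1 was 75.8 and 67.0 CPM after PBS and 308 and 407 CPM after the mix (2.32 ± 0.34, adjusted p = 1.3e-05). Irf2, which can repress the targets of Irf1, rose with it and by less, from 42.5 and 39.4 CPM to 104 and 122 CPM (1.46 ± 0.17, adjusted p = 4.4e-07). None of these 4 genes had overlapping groups.

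Irf8 had the largest fitted change of the 8. It gave 12 counts over both PBS libraries, 0.890 and 0.682 CPM, and 507 counts over both libraries of the mix, 38.1 and 43.5 CPM (5.66 ± 0.54, adjusted p = 3.6e-08). Because Irf8 is abundant in leukocytes, markers of those cells were read in the same libraries. The pan-leukocyte list summed to 0.303 to 1.53 CPM after the mix and 0.763 to 0.955 CPM after PBS, while in CD45+ cells of uninjured muscle it summed to 10531 to 10960.3 CPM. Cd52, Cd53 and Laptm5 of that list were at 0 in both libraries of the mix. The macrophage list of 10 genes summed to 7.43 to 15.8 CPM against 4.77 to 4.83 CPM, with Adgre1, Lyz2, Ccr2 and Fcgr1 at 0 after the mix. A dendritic cell list of 8 genes summed to 49.4 to 69.3 CPM after the mix and 16.1 to 34.4 CPM after PBS, and its part in the result was not tested. In sorted bulk RNA, more cells of a kind and more RNA per cell cannot be told apart.

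Irf3, Irf4 and Irf5 overlapped between the groups at 2 h. Irf3, which is regulated mainly by phosphorylation of its protein, measured 50.5 and 43.5 CPM after the mix against 55.7 and 48.3 CPM (log2 change -0.15 ± 0.15, adjusted p = 0.48). Irf5 measured 16.8 and 22.2 CPM against 16.1 and 18.5 CPM, and Irf4 13.04 and 6.28 CPM against 8.26 and 4.23 CPM.

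**Figure D1:**
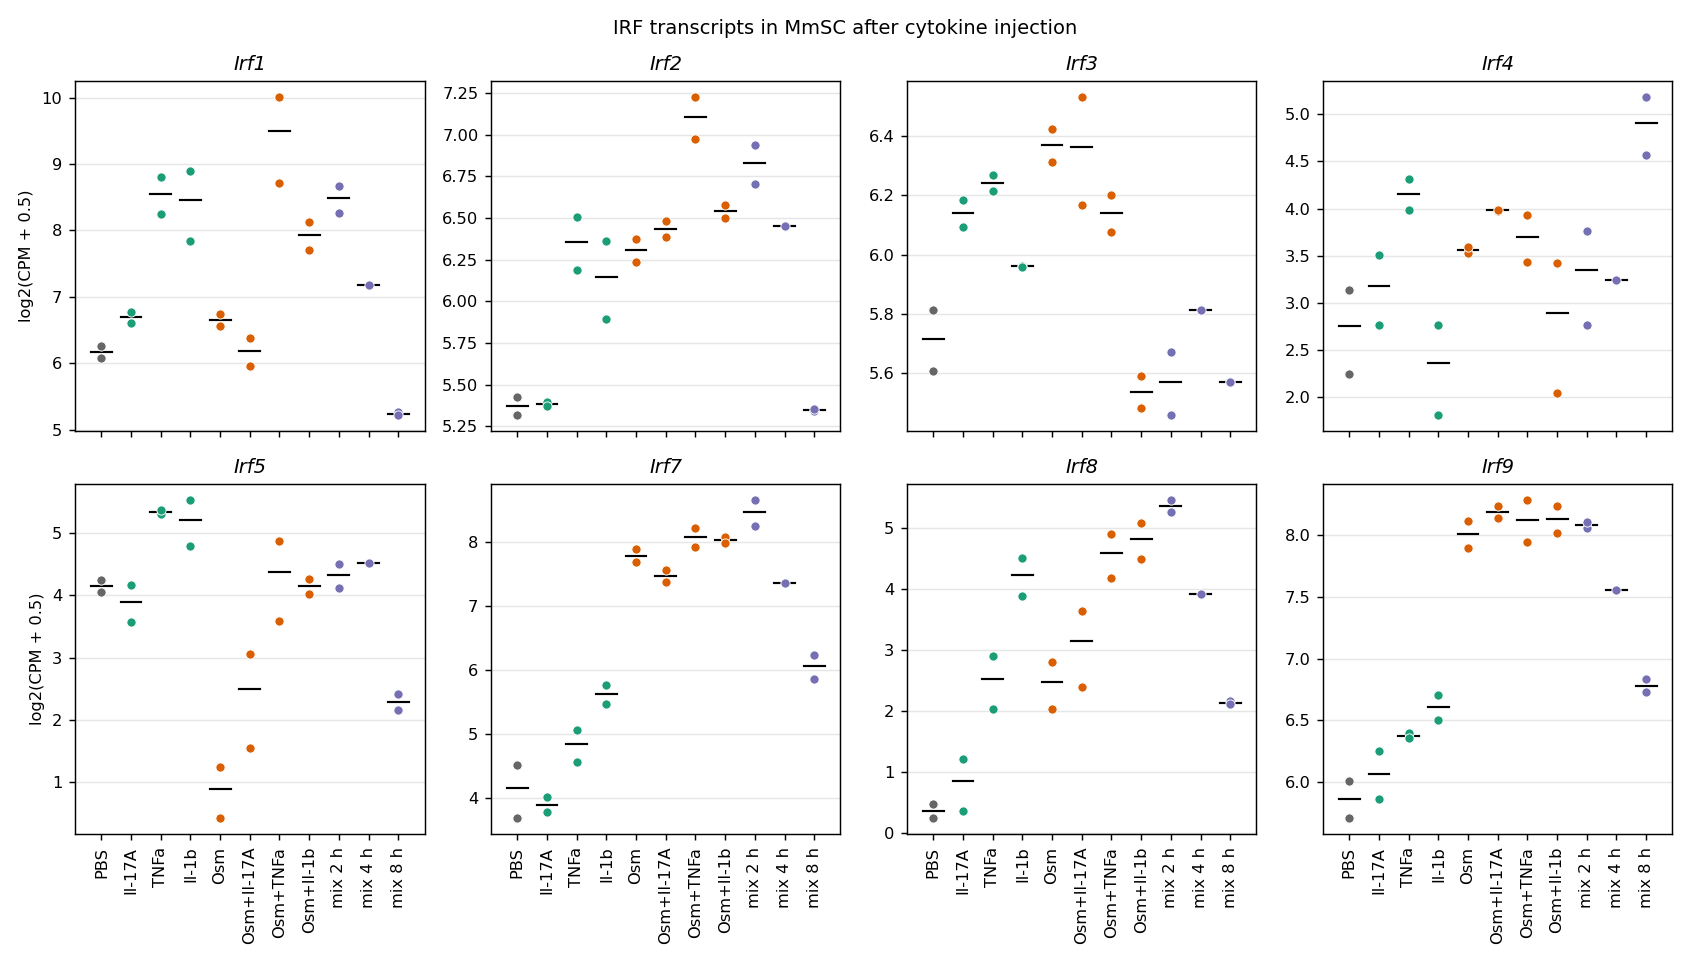
Level of each IRF transcript in MmSCs of the cytokine experiment, as log2 of CPM plus 0.5 (vertical axis), by injection (horizontal axis). Points are libraries and bars are group means. Irf7 and Irf9 are highest in the groups given Osm or the mix at 2 h, Irf5 is lowest after Osm alone (1.87 and 0.843 CPM), and Irf3 stays between 43.5 and 92.0 CPM in all 21 libraries.

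With time the 8 genes separated. At 4 h, where only 1 library exists and its spread was taken to be that of the other groups, the same 5 genes were called upward (36.4% of all genes called, 19.6% upward) at lower levels than at 2 h. Irf7 was 165 CPM, Irf9 188 CPM, Irf1 144 CPM, Irf2 86.9 CPM and Irf8 14.7 CPM. The Irf1 call at 4 h (adjusted p = 0.047) was lost without PBS replicate 1 (adjusted p = 0.10) or PBS replicate 2 (adjusted p = 0.18).

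At 8 h, 4 genes were above PBS and 2 below (28.4% of all genes called). Irf7 at 58.0 and 75.4 CPM and Irf9 at 113 and 105 CPM were still higher than after PBS (log2 changes 1.93 ± 0.24 and 0.92 ± 0.16, adjusted p = 2.7e-06 and 0.00015). Irf8 was 3.96 and 3.81 CPM (2.27 ± 0.61, adjusted p = 0.0071, and 0.064 without PBS replicate 2). Irf2 was back at 40.0 and 40.3 CPM, within the range of PBS. Marker lists moved over the same times. The endothelial list summed to 217 to 267 CPM after PBS, 128 to 146 CPM at 2 h and 54.6 to 59.4 CPM at 8 h, the satellite cell list to 68.8 to 73.0, 151 to 196 and 30.1 to 32.0 CPM, and the pericyte and smooth muscle list to 113 to 131, 81.9 to 100.4 and 22.7 to 26.3 CPM. In the satellite cell list, Myf5 and Myod1 were at 0 after PBS. Pax7 and Myf5 were at 0 at 2 h and at 8 h, as were Calcr at 2 h and Myod1 at 8 h. The list of MmSC markers summed to 59202 to 63534 CPM after PBS and 40703 to 43507 CPM at 8 h. Their part in the IRF changes was not tested.

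Irf4 and Irf5, which did not pass at 2 or 4 h, were called at 8 h. Irf4 was 35.8 and 23.2 CPM at 8 h, above PBS by 2.23 ± 0.43 (adjusted p = 0.00046) and above the 2 h libraries by 1.60 ± 0.42 (adjusted p = 0.0053). The call against 2 h was lost without mix 2 h replicate 2 or mix 8 h replicate 1 (adjusted p = 0.084 and 0.076). Irf5 fell to 3.96 and 4.84 CPM, below PBS by -1.98 ± 0.44 on the log2 scale (adjusted p = 0.0017).

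Irf1 dropped below PBS at 8 h, to 37.9 and 36.8 CPM (-0.93 ± 0.34, adjusted p = 0.046). That call was lost on leaving out any one of the 4 libraries (adjusted p 0.087 to 0.17). Between 2 and 8 h directly, 6 of the 8 genes fell and Irf4 rose (35.3% of all genes called), with the largest falls in Irf8 (-3.38 ± 0.44) and Irf1 (-3.26 ± 0.36). Irf3 was 47.0 CPM in both 8 h libraries and did not pass the test.

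The single cytokines divided the family. Irf7 and Irf9 were highest after Osm and Irf1 after Il-1b and TNFa, while Irf8 rose after all 3 and Irf5 fell after Osm. These comparisons share the PBS libraries. Of all genes, 34.3% were called after Osm, 33.1% after Il-1b (19.5% upward), 14.8% after TNFa (10.2% upward) and 4.95% after Il-17A.

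Osm, an Il-6 family cytokine that signals through gp130 and STATs, raised 5 of the 8 genes and lowered 1. Irf7 reached 206 and 236 CPM (3.66 ± 0.24, adjusted p = 3.9e-10) and Irf9 238 and 276 CPM (2.15 ± 0.16, adjusted p = 2.5e-09), each above all Il-1b, TNFa and PBS libraries. Irf2, Irf3 and Irf8 also rose, by 0.94 ± 0.16, 0.66 ± 0.15 and 2.64 ± 0.59. Irf1 was 93.5 and 107 CPM after Osm, a log2 difference of 0.49 ± 0.33 from PBS that did not pass (adjusted p = 0.27, and 0.018 in a fit of these groups alone).

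Irf5, which mediates inflammatory cytokine expression in macrophages, fell with Osm. Its levels were 1.87 and 0.843 CPM against 16.1 and 18.5 CPM after PBS (-3.66 ± 0.53, adjusted p = 1.6e-05). After Il-1b it was 27.2 and 45.8 CPM (1.07 ± 0.39, adjusted p = 0.04) and after TNFa 39.1 and 41.1 CPM (1.21 ± 0.39, adjusted p = 0.04). The 2 upward calls rested on few libraries. That after Il-1b was lost without PBS replicate 1, PBS replicate 2 or Il-1b replicate 2 (adjusted p 0.12 to 0.32), and that after TNFa without any one of its 4 libraries (adjusted p 0.12 to 0.22). Osm against Il-1b (9.65% of all genes called) and Osm against TNFa (17.8%) were also tested directly. Irf5 differed by -4.74 ± 0.52 and -4.87 ± 0.52 (adjusted p = 1.6e-06 and 1.0e-06).

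Il-1b, which signals through Myd88 and NF-kB, raised 6 of the 8 genes. Irf1 reached 229 and 476 CPM (2.30 ± 0.34, adjusted p = 2.1e-05) and Irf8 14.3 and 22.2 CPM (4.50 ± 0.55, adjusted p = 1.8e-06). Irf7 at 54.1 and 43.7 CPM (1.48 ± 0.24) and Irf9 at 104 and 89.996 CPM (0.75 ± 0.16) rose too. Both remained below every Osm library, and against Il-1b, Osm was higher by 2.18 ± 0.23 for Irf7 (adjusted p = 6.5e-07) and 1.41 ± 0.16 for Irf9 (adjusted p = 2.4e-06). In that comparison Irf1 was lower after Osm by -1.81 ± 0.33 (adjusted p = 0.00072), and so was Irf8, by -1.86 ± 0.43 (adjusted p = 0.0058, and 0.087 and 0.12 without Il-1b replicate 2 or Osm replicate 1). The pan-leukocyte list summed to 1.86 to 3.36 CPM after Il-1b and the dendritic cell list to 45.4 to 61.7 CPM, and their part in the Irf8 result was not tested.

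TNFa, the ligand of the TNF receptors, gave 7 upward calls, of which 2 held without each single library. Irf1 was 302 and 445 CPM (2.39 ± 0.34, adjusted p = 4.8e-05) and Irf2 72.5 and 90.5 CPM (0.99 ± 0.16, adjusted p = 0.00026). Irf8 at 3.57 and 6.94 CPM was called (2.7 ± 0.59, adjusted p = 0.0033) but not without PBS replicate 2 or TNFa replicate 2 (adjusted p = 0.0501 and 0.066). Irf3, Irf4 and Irf9 were called at adjusted p of 0.017, 0.026 and 0.036, and leaving out single libraries raised these to 0.19, 0.26 and 0.32. Irf7 at 33.2 and 23.2 CPM did not pass (adjusted p = 0.063) in spite of groups that did not overlap, and passed without PBS replicate 1 or TNFa replicate 2 (adjusted p = 0.013 and 0.0497) and by DESeq2 (adjusted p = 0.038). With the replicate block its adjusted p was 0.047.

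Il-1b and TNFa were compared with each other (10.3% of all genes called). Irf8 was higher after Il-1b by 1.80 ± 0.42 (adjusted p = 0.0085), Irf7 by 0.79 ± 0.23 (adjusted p = 0.033), and Irf4 lower by -1.90 ± 0.46 (adjusted p = 0.011). Each of these 3 calls was lost without 1 of 2 libraries, Irf8 without Il-1b replicate 2 or TNFa replicate 1, Irf7 without Il-1b replicate 1 or TNFa replicate 2, and Irf4 without Il-1b replicate 1 or TNFa replicate 1 (adjusted p 0.074 to 0.33). Irf1 differed by -0.08 ± 0.32.

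Il-17A, which acts through Act1 and NF-kB, gave no call among the 8 genes in edgeR's quasi-likelihood test, and none by DESeq2. At an unadjusted p under 0.05, 1 of the 8 passed, which was not Irf1, against 19.5% of all genes. Irf3 was 72.3 and 67.7 CPM, against 55.7 and 48.3 CPM after PBS. Irf1 was 97.2 and 108 CPM, both above PBS, with a log2 difference of 0.53 ± 0.33 (adjusted p = 0.41, and 0.042 in a fit of these groups alone). Irf8 stood at 0.784 and 1.81 CPM, near PBS.

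**Figure D2:**
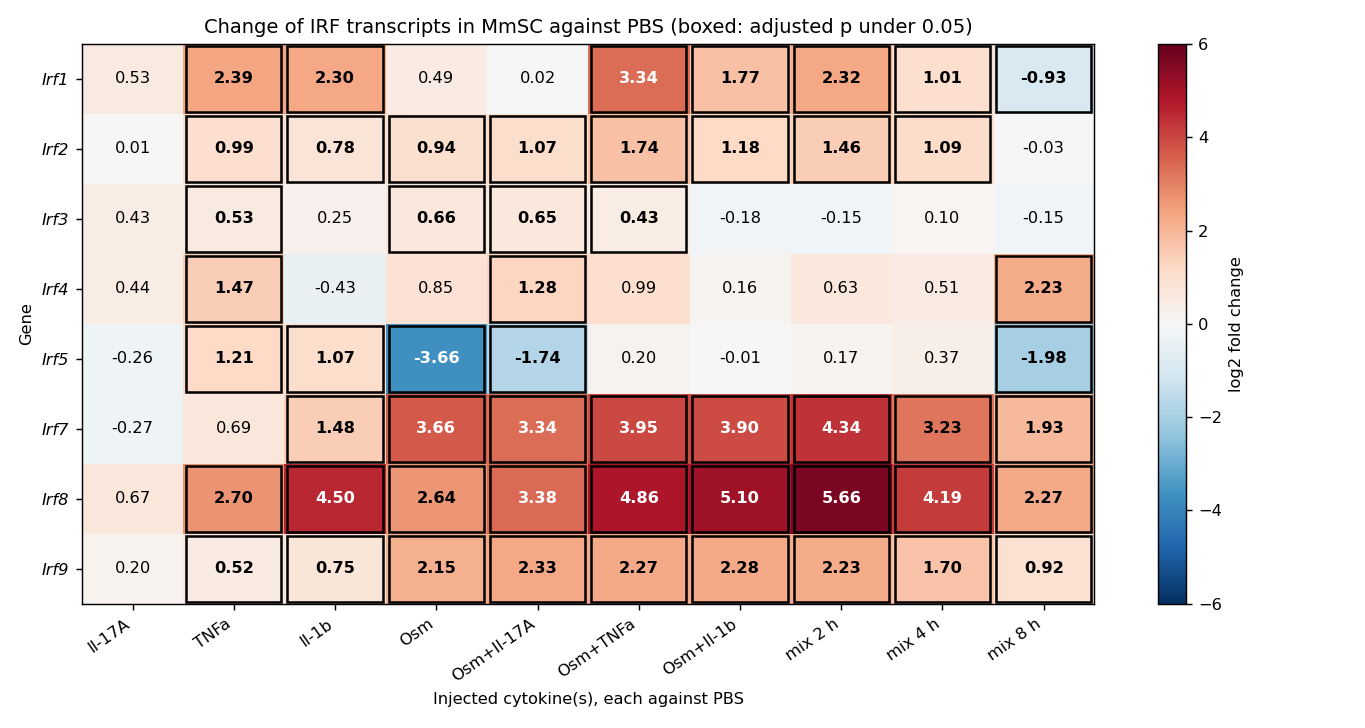
Fitted log2 change of each IRF transcript (rows) against PBS for each injection (columns), with boxes around changes at an adjusted p under 0.05. Irf7 and Irf9 are boxed in every column that holds Osm, Irf1 in those of Il-1b, TNFa and their pairs, and no Il-17A cell is boxed. Irf5 turns from -3.66 after Osm to 1.07 and 1.21 after Il-1b and TNFa.

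Osm was also given in a pair with each of the other cytokines. After Osm+Il-1b (41.9% of all genes called against PBS, 21.7% upward), 5 members were up, with Irf7 at 271 and 255 CPM, Irf9 at 301 and 258 CPM, Irf1 at 209 and 279 CPM and Irf8 at 21.9 and 33.3 CPM. After Osm+TNFa (37% of all genes called, 20.5% upward), 6 were up, and Irf1 reached 420.2 and 1029.7 CPM, the second being its highest value in any cytokine library (3.34 ± 0.35, adjusted p = 2.0e-07). After Osm+Il-17A (35.6% of all genes called), 6 were up and Irf5 was down. Several of these calls rested on single libraries. Irf3 after Osm+TNFa was lost without PBS replicate 2 or either Osm+TNFa library (adjusted p 0.062 to 0.25), and Irf4 after Osm+Il-17A without PBS replicate 2 or either Osm+Il-17A library (adjusted p 0.088 to 0.25). Irf3 and Irf5 after Osm+Il-17A were lost without its replicate 1 (adjusted p = 0.063 and 0.076). Against Osm alone, Osm+Il-17A changed none of the 8 (1.22% of all genes called) by edgeR's quasi-likelihood test, while 1 had an unadjusted p under 0.05 (10.2% of all genes). That gene was Irf5, which DESeq2 called (adjusted p = 0.022) and which passed in edgeR without Osm+Il-17A replicate 1 (adjusted p = 0.036).

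What the second cytokine added was read against Osm alone. Il-1b raised Irf1 by 1.28 ± 0.33 (adjusted p = 0.012), Irf5 by 3.66 ± 0.54 (adjusted p = 8.3e-05) and Irf8 by 2.46 ± 0.43 (adjusted p = 0.00045) over Osm, and lowered Irf3 by -0.84 ± 0.15 (adjusted p = 0.00063), with 13% of all genes called. The Irf1 call was lost without Osm replicate 1, Osm replicate 2 or Osm+Il-1b replicate 2 (adjusted p 0.058 to 0.11). TNFa raised Irf1 by 2.85 ± 0.34 (adjusted p = 1.4e-05), Irf2 by 0.80 ± 0.16, Irf5 by 3.87 ± 0.53 and Irf8 by 2.21 ± 0.43 (4.47% of all genes called, 3.58% upward). Of these, Irf2 was lost without Osm replicate 2 (adjusted p = 0.064) or Osm+TNFa replicate 2 (0.077), and Irf8 without Osm replicate 1 (0.074) or Osm+TNFa replicate 2 (0.055). Irf7 and Irf9 differed from Osm by 0.12 to 0.29 in these pairs and did not pass.

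What Osm added was read against the second cytokine alone. Over Il-1b, only Irf7 (2.42 ± 0.23) and Irf9 (1.53 ± 0.16) of the 8 passed (7.03% of all genes called, 3.7% upward). Over TNFa (18.2% of all genes called, 11.2% upward), Irf7 rose by 3.26 ± 0.24, Irf8 by 2.16 ± 0.42, Irf9 by 1.75 ± 0.16, Irf2 by 0.75 ± 0.16 and Irf1 by 0.96 ± 0.32. The Irf1 groups overlapped in that last comparison, and without Osm+TNFa replicate 2 its change was 0.17 (adjusted p = 0.78). It was also lost without TNFa replicate 1 or 2 (adjusted p = 0.28 and 0.053), while Irf5 passed without Osm+TNFa replicate 2 (-1.79, adjusted p = 0.013).

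Interaction terms tested whether a pair differed from the sum of its 2 single effects on the log2 scale. For Osm and Il-1b (15.8% of all genes called) Irf3 was below the sum by -1.09 ± 0.21 (adjusted p = 0.0013), Irf7 below it by -1.23 ± 0.32 (adjusted p = 0.011) and Irf5 above it by 2.58 ± 0.68 (adjusted p = 0.013). The Irf3 call held on leaving out each library in turn, and its levels were 47.7 and 44.2 CPM after the pair against 85.3 and 78.9 CPM after Osm. Irf1, Irf2, Irf8 and Irf9 did not pass but did on leaving out Il-1b replicate 1 (Irf1, Irf2 and Irf8), Osm replicate 1 (Irf8) or Il-1b replicate 2 (Irf9), at adjusted p of 0.032 to 0.0498. The Irf7 call was lost without PBS replicate 2, Il-1b replicate 1 or Osm replicate 2 (adjusted p 0.05002 to 0.11) and the Irf5 call without Osm replicate 2 (adjusted p = 0.083). For Osm and TNFa (5.91% of all genes called), Irf3 (-0.76 ± 0.21) and Irf5 (2.66 ± 0.67) were called, at adjusted p of 0.033 and 0.023. The first was lost without any one of the 8 libraries (adjusted p 0.0501 to 0.15) and the second without any one of 5 (0.054 to 0.13). For Osm and Il-17A (2.56% of all genes called) no member was called by edgeR's quasi-likelihood test, 3 had an unadjusted p under 0.05 (16.1% of all genes), and DESeq2 called Irf5 (adjusted p = 0.027). Irf5 also passed in edgeR without Osm+Il-17A replicate 1 (adjusted p = 0.036).

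Levels of different genes were compared per kilobase of exon. After PBS, Irf1 led at 17.9 CPM per kb, followed by Irf3 (15.1), Irf9 (10.7), Irf5 (5.97), Irf2 (5.54), Irf7 (4.62), Irf4 (1.27) and Irf8 (0.111). At 2 h after the mix Irf7 (94.0) and Irf1 (89.8) led, then Irf9 (50.3), while Irf3 stood at 13.7 CPM per kb. The order of Irf1 and Irf7 at 2 h is within their spread, since their SDs over libraries were 70.3 and 69.6 CPM.

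The rest of the interferon pathway was read from 8 lists. None of 14 interferon genes, Ifnb1 and Ifng included, had enough counts to be tested in any experiment. Of 20 ISGF3 target genes, all 20 rose at 2 h after the mix and all 20 after Osm, against 12 (with 1 lower) after Il-1b and 4 (with 1 lower) after TNFa. Their median log2 changes were 4.17, 3.72, 1.203 and 0.55. Ifit1, an inhibitor of viral RNA translation, rose from 19.1 to 824 CPM after the mix (5.43 ± 0.27) and to 632 CPM after Osm (5.05 ± 0.26), and Isg15, a ubiquitin-like modifier, rose by 1.90 ± 0.30 after Il-1b.

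Of 17 GTPase and chemokine targets, 17 rose after the mix, 14 after Osm, 15 after Il-1b and 14 after TNFa. Gbp5, a guanylate-binding protein of the inflammasome pathway, went from 2.22 CPM to 268 CPM after Il-1b (6.89 ± 0.30) and to 42.0 CPM after Osm (4.22 ± 0.30). Of 13 antigen presentation genes, 12 rose after each of the mix, Osm, Il-1b and TNFa. Tap1, a peptide transporter, rose from 26.01 to 928 CPM after the mix (5.16 ± 0.20). Il-17A raised none of the ISGF3 list (2 fell), none of the GTPase list and 1 of the antigen presentation list.

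Receptors and signal carriers moved as well. All 5 tested interferon receptor chains rose after Il-1b and after TNFa, for example Ifnar2 from 80.2 to 249 CPM after Il-1b (1.64 ± 0.12). After Osm 1 rose and 1 fell. Stat2, the partner of Irf9 in ISGF3, rose from 46.9 to 271 CPM after the mix (2.53 ± 0.15), to 288 CPM after Osm (2.62 ± 0.15) and to 107 CPM after Il-1b (1.19 ± 0.15), and fell to 32.4 CPM after Il-17A (-0.53 ± 0.15, adjusted p = 0.048). Of 17 sensors, adaptors and kinases tested, 10 rose and 2 fell after the mix. Usp18, an inhibitor of type I interferon receptor signalling in the list of partners and restrainers, rose from 19.3 to 76.9 CPM (2.00 ± 0.20). Of that list 8 rose and 2 fell among 13 tested.

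Likeness of pattern was described by Pearson's r of mean log2 CPM over the 11 cytokine groups, among 8690 well-expressed genes. These groups come from 1 experiment with 1 range of depth, and no test is attached. Irf7 was most like Tap1 (0.995), Rsad2 (0.994) and Isg15 (0.991), and Irf9 most like Ifit1 (0.991), Irgm1 and Pnpt1 (each 0.989). Irf7 and Irf9 correlated with each other at 0.977. Irf1 was most like Il15 (0.938), Irf2 most like Parp14 (0.962), Irf5 most like Il20rb (0.976) and Irf8 most like Plscr1 (0.982). For Irf3 and Irf4 the nearest genes were Pcmt1 (0.928) and Prpf18 (0.883).

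Across uninjured muscle, each of the 4 sorted populations had its own IRF profile. CD45+ cells held most of the Irf5, Irf8 and Irf4, CD31+ cells most of the Irf1, and Irf3 was nearly even. Irf5 was 723, 611 and 706 CPM in CD45+ cells, 18.4, 22.6 and 18.1 CPM in MmSCs, 2.16, 3.10 and 2.00 CPM in MuSCs and 0.649, 1.72 and 0 CPM in CD31+ cells. CD45+ cells exceeded MmSCs by 5.11 ± 0.42 (adjusted p = 4.6e-10), and MmSCs exceeded MuSCs by 3.07 ± 0.54 (adjusted p = 7.9e-05). MuSCs and CD31+ cells did not overlap and did not pass (adjusted p = 0.20).

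Irf8 was 475, 440.2 and 537 CPM in CD45+ cells. MuSCs came second at 24.8, 31.4 and 29.1 CPM, CD31+ cells had 10.6, 4.30 and 14.4 CPM, and MmSCs had 2.90, 2.06 and 3.84 CPM. Each neighbour in that order differed (adjusted p 0.0004 or lower). In the MuSC libraries the pan-leukocyte list summed to 1.18 to 2.20 CPM, with Tyrobp and Cd48 at 0. The B cell list summed to 43.4 to 66.7 CPM there, with Cd79b, Pax5 and Jchain at 0.

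Irf4 was 124, 98.6 and 92.8 CPM in CD45+ cells and 15.0, 14.6 and 10.8 CPM in MmSCs (a difference of 2.96 ± 0.45, adjusted p = 1.1e-05). It had 0 counts in the 3 CD31+ libraries and 3 counts in the 3 MuSC libraries. Taking 3 counts in each library as the limit for CD31+ cells, MmSCs were at least 16.8-fold higher. Against MuSCs the MmSC ratio was 59.1 (95% counting interval 19.9 to 289).

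Irf1 was highest in CD31+ cells, at 367, 339 and 464 CPM. CD45+ cells at 116, 148 and 207 CPM and MmSCs at 139.8, 133 and 149 CPM did not pass (adjusted p = 0.48, and 0.023 without CD45+ uninjured replicate 1). MuSCs were lowest at 63.4, 71.3 and 77.6 CPM (MmSCs higher by 0.99 ± 0.19, adjusted p = 0.00016).

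Irf7 and Irf9 shared an order. Irf7 was 202, 201 and 226 CPM in CD31+ cells and 169.6, 165 and 198 CPM in CD45+ cells (adjusted p = 0.38 between them), 37.0, 44.8 and 46.1 CPM in MmSCs and 9.45, 8.96 and 12.8 CPM in MuSCs. Irf9 was 179, 195 and 205 CPM, 149, 140.3 and 189 CPM, 94.0, 89.1 and 72.7 CPM and 44.5, 35.8 and 48.9 CPM in the same order, with CD31+ and CD45+ cells again not separated (adjusted p = 0.16). Over the 8 compartment groups their mean log2 CPM correlated at 0.992.

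Irf2 was 94.6 to 128 CPM in CD45+ cells, 66.2 to 78.5 CPM in CD31+ cells, 35.9 to 40.2 CPM in MmSCs and 33.5 to 53.7 CPM in MuSCs, where the last pair overlapped. Irf3 ran from 74.3 to 125 CPM over all 12 libraries. Its calls for CD45+ (0.40 ± 0.14) and CD31+ cells (0.39 ± 0.14) against MmSCs were lost without CD45+ replicate 3 (adjusted p = 0.20) and CD31+ replicate 2 (adjusted p = 0.0505). Between pairs of uninjured populations, the members called numbered 7 of 8 for CD45+ against MmSC (56.7% of all 16374 genes tested, 28.2% upward), 5 for CD45+ against CD31+ (50.7%) and 7 for CD45+ against MuSC (56.4%, 29.1% upward). They numbered 8 for CD31+ against MmSC (47%), 5 for CD31+ against MuSC (49.3%) and 6 for MmSC against MuSC (40.7%). Since each of these comparisons called 40.7% or more of all genes, the counts for pairs with 5 calls are close to the background.

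**Figure D3:**
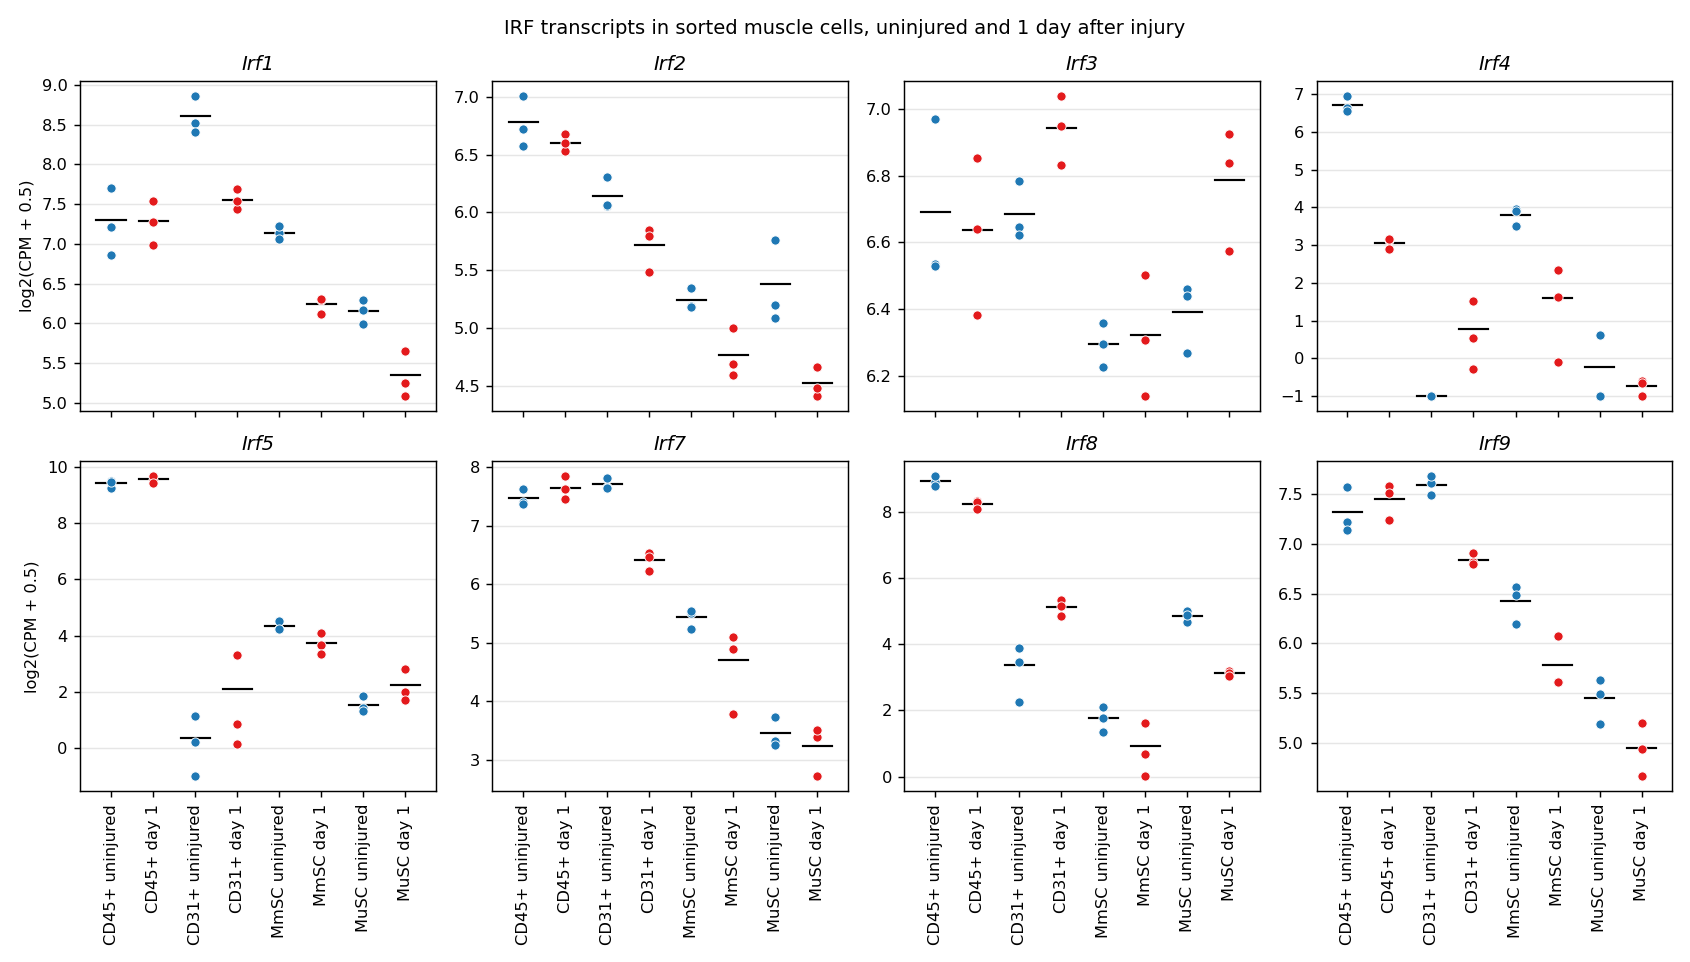
Level of each IRF transcript in the 4 sorted populations, as log2 of CPM plus 0.5 (vertical axis), uninjured (blue) and 1 day after cardiotoxin (red). Points are libraries and bars are means of 3. Irf5 and Irf8 are highest in CD45+ cells before and after injury, and Irf4 falls from 92.8 to 124 CPM to 6.89 to 8.48 CPM in CD45+ cells.

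One day after cardiotoxin the IRF changes differed among the populations. In MmSCs 5 of the 8 genes fell and none rose (41.8% of all genes called, 23.6% downward), with a median log2 change of -0.69 over members and -0.22 over all genes. Irf1 went from 139.8, 133 and 149 CPM to 69.0, 77.9 and 78.4 CPM (-0.90 ± 0.19, adjusted p = 0.0004), and Irf4 from 15.0, 14.6 and 10.8 CPM to 0.427, 4.57 and 2.57 CPM (-2.45 ± 0.52, adjusted p = 0.00069). No injured library reached an uninjured one in either gene, and both calls held without each single library.

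The other 3 falls in MmSCs were less firm. Irf2 (-0.48 ± 0.17, adjusted p = 0.032) was lost on leaving out any of 5 of the 6 libraries (0.12 to 0.31). Irf7 (-0.73 ± 0.23, adjusted p = 0.015) was lost without uninjured replicate 2 or 3 or injured replicate 3 (0.11 to 0.13). Irf9 (-0.65 ± 0.16, adjusted p = 0.0029) was lost without uninjured replicate 1 or 2 (0.089 and 0.066). Fitted on MmSC libraries alone, Irf2 and Irf7 did not pass (adjusted p = 0.082 and 0.094). With no filter on low counts the changes of Irf2, Irf7 and Irf9 were -0.28, -0.53 and -0.45. None of the 3 passed in that fit (adjusted p = 0.60, 0.053 and 0.11). Irf8 at 2.56, 0.508 and 1.102 CPM against 2.90, 2.06 and 3.84 CPM did not pass (adjusted p = 0.086), and did without injured replicate 1 (adjusted p = 0.011) and by DESeq2 (adjusted p = 0.019). Irf3 measured 69.96, 78.6 and 90.2 CPM against 77.99, 81.6 and 74.3 CPM. The endothelial list summed to 97.2 to 120.4 CPM in uninjured MmSCs and 12.7 to 19.1 CPM in injured ones, the myofibre list to 181 to 415 and 3.42 to 15.6 CPM, and the B cell list to 47.2 to 110.1 and 138 to 254 CPM. The list of MmSC markers itself went from 55354 to 78115 CPM to 17958 to 22896 CPM. The part of these shifts in the falls was not tested.

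In CD31+ cells, Irf1, Irf7 and Irf9 fell and Irf8 and Irf4 rose (23.5% of all genes called). Irf7 went from 202, 201 and 226 CPM to 92.0, 74.7 and 87.5 CPM (-1.30 ± 0.22, adjusted p = 0.00011). Irf1 fell to 173, 185 and 205 CPM (-1.06 ± 0.18, adjusted p = 0.00014) and Irf9 to 112, 111 and 119 CPM (-0.76 ± 0.16, adjusted p = 0.0012).

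Irf8 rose in CD31+ cells from 10.6, 4.30 and 14.4 CPM to 40.2, 35.0004 and 28.4 CPM (1.82 ± 0.28, adjusted p = 3.1e-05). Without injured replicate 1, the library with more leukocyte markers, the change was 1.70 (adjusted p = 0.00024). In the other two injured libraries the pan-leukocyte list summed to 24.1 and 24.2 CPM, inside the 20.97 to 35.6 CPM of the uninjured ones. Irf4 went from 0 counts to 20 counts over 3 libraries, at least 1.51-fold higher against a limit of 3 counts in each library. Its call was lost without any uninjured library or injured replicate 2 (adjusted p 0.076 to 0.12). Irf5 was 9.42 CPM in injured replicate 1 and 0.593 and 1.29 CPM in the other two. It did not pass (adjusted p = 0.052), and without injured replicate 1 its change was 0.31 (adjusted p = 0.84). It passed without uninjured replicate 2, injured replicate 2 or injured replicate 3 (adjusted p 0.010 to 0.041). Irf2 did not pass in CD31+ cells (-0.43 ± 0.17, adjusted p = 0.069) but did with DESeq2 (adjusted p = 0.0089).

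In CD45+ cells only Irf4 and Irf8 of the 8 genes were called, both downward (34.6% of all genes called, 18.7% downward). Irf4 went from 124, 98.6 and 92.8 CPM to 8.26, 8.48 and 6.89 CPM (-3.73 ± 0.48, adjusted p = 5.1e-06). Irf8 went from 475, 440.2 and 537 CPM to 320.4, 312 and 272 CPM (-0.68 ± 0.22, adjusted p = 0.02), and was lost on leaving out any of 5 of the 6 libraries (0.0503 to 0.096). Cell markers moved in the same libraries. The dendritic cell list fell from 18936 to 23636 CPM to 2603 to 3587 CPM, the B cell list from 2249 to 5808 CPM to 149 to 251 CPM, and the T and NK cell list from 148 to 375 CPM to 8.73 to 19.5 CPM. The neutrophil list went from 1312 to 3679 CPM to 7175 to 10903 CPM. The part of these shifts in the Irf4 and Irf8 results was not tested, and a change in cell makeup cannot be told apart from a change within cells. Irf5 remained at 745, 808 and 689.9 CPM (log2 change 0.14 ± 0.34).

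In MuSCs, Irf8 fell from 24.8, 31.4 and 29.1 CPM to 8.67, 8.19 and 7.69 CPM (-1.79 ± 0.27, adjusted p = 1.4e-05). Irf1 fell from 63.4, 71.3 and 77.6 CPM to 33.5, 37.7 and 49.6 CPM (-0.81 ± 0.19) and Irf2 from 53.7, 36.2 and 33.5 CPM to 20.8, 24.9 and 21.9 CPM (-0.87 ± 0.17). In all, 4 members were called down and 1 up (38.8% of all genes called). The remaining calls, Irf9 down (-0.51 ± 0.17, with overlapping groups) and Irf3 up (0.40 ± 0.14), were each lost without any of 4 of the 6 libraries (adjusted p 0.06 to 0.14 for Irf9 and 0.056 to 0.12 for Irf3). With DESeq2's size factors the Irf3 change was 0.29 (adjusted p = 0.11). In the same MuSC libraries the B cell list summed to 43.4 to 66.7 CPM before and 143 to 190.3 CPM after injury, the endothelial list to 30.7 to 50.4 and 15.9 to 18.0 CPM, and the myofibre list to 360 to 382 and 172 to 211 CPM. Pdgfra was at most 0.345 CPM before injury and 0.304 to 49.8 CPM after it. Their part in the MuSC results was not tested.

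**Figure D4:**
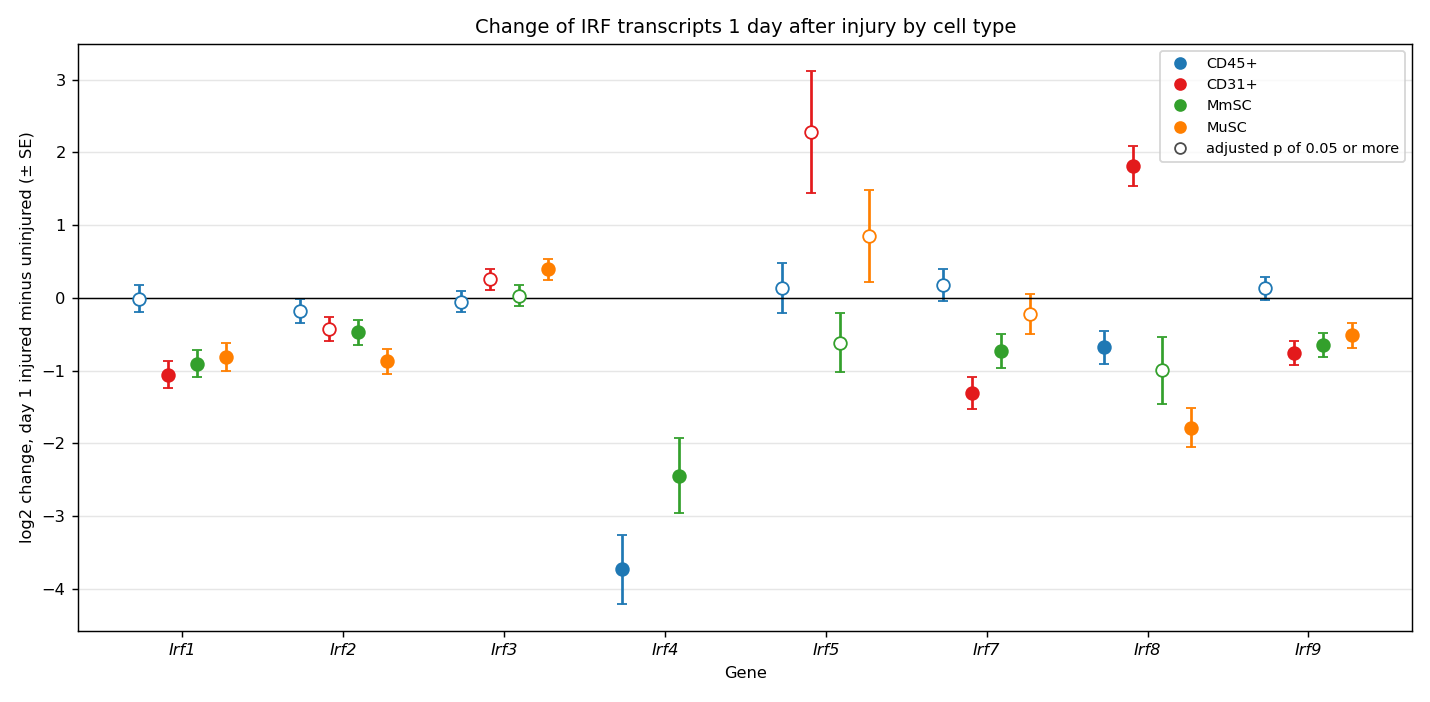
Fitted log2 change of each IRF transcript 1 day after cardiotoxin in the 4 sorted populations, with SE bars. Irf4 is left out for CD31+ cells and MuSCs, where counts summed to 3 or fewer over a group. Irf8 is above 0 in CD31+ cells (1.82) and below 0 in MuSCs (-1.79), and Irf1 is below 0 in MmSCs, CD31+ cells and MuSCs.

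Differences between populations in the response to injury were tested directly. MmSCs minus CD31+ cells (12.5% of all genes called, 7.71% downward) differed for Irf8 (-2.82 ± 0.54, adjusted p = 0.0011, and -2.69 without CD31+ injured replicate 1) and for Irf4, whose fitted size is set by the 0 counts in CD31+ cells. The Irf5 term (-2.91 ± 0.93, adjusted p = 0.043) was -0.91 without CD31+ injured replicate 1 (adjusted p = 0.55). It was also lost without any of 7 other libraries (adjusted p 0.063 to 0.14). MmSCs minus CD45+ cells (25% of all genes called, 11.5% downward) differed for Irf1 (-0.89 ± 0.26, adjusted p = 0.013), Irf9 (-0.78 ± 0.23, adjusted p = 0.014) and Irf7 (-0.91 ± 0.32, adjusted p = 0.039). Each of these 3 was lost on leaving out any of 6 to 9 of the 12 libraries (adjusted p 0.051 to 0.15). MmSCs minus MuSCs (7.64% of all genes called) gave no call among the 8, by edgeR's quasi-likelihood test or by DESeq2, and 0 of the 8 had an unadjusted p under 0.05 (19.9% of all genes).

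The target lists were read in the same libraries. In CD31+ cells 12 of 20 ISGF3 targets, 14 of 16 GTPase and chemokine targets and 11 of 13 antigen presentation genes fell and none rose, with 23.5% of all genes called. Ifit3 fell by -1.61 ± 0.28 from 175 to 57.3 CPM and Gbp3 by -1.64 ± 0.24 from 237 to 76.1 CPM. Stat2 fell by -1.01 ± 0.16, from 91.2 to 45.2 CPM. In MmSCs 5 of 20 ISGF3 targets fell and 1 rose (Bst2, the antiviral tetherin), 7 of 16 GTPase and chemokine targets fell and 1 rose (Cxcl10, a T cell chemokine), and 5 of 13 antigen presentation genes fell and 1 rose. Beside the 41.8% of all genes called there in either direction, these shares are near or below the background. Downward calls alone made up 23.6% of all genes, and a higher share of the GTPase and chemokine and antigen presentation lists fell. Their median log2 changes were -1.08 and -0.33, beside -0.22 over all genes. In CD45+ cells (34.6% of all genes called) 5 of 20 ISGF3 targets rose and 1 fell, with Ifit1 from 29.9 to 78.9 CPM (1.398 ± 0.30), while 6 of 16 GTPase and chemokine targets fell and 1 rose. In MuSCs (38.8% of all genes called) 7 of 16 GTPase and chemokine targets fell, and the 20 ISGF3 targets gave 1 rise and 2 falls. Counted in either direction, the shares in CD45+ cells and MuSCs are likewise near or below the background. The GTPase and chemokine calls were mostly falls, with median log2 changes of -0.72 in CD45+ cells and -1.02 in MuSCs. Over all genes the medians were -0.12 and -0.04, and 18.7% of all genes were called downward in CD45+ cells.

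The Il-6 reporter split MmSCs at 12 h after cardiotoxin without a call among the IRFs when replicate numbers were left out of the fit. With a replicate block, Irf8 was called. Without the block, no gene of 11975 tested passed edgeR's quasi-likelihood test (0% called). At an unadjusted p under 0.05, 1 of the 7 members and 1258 of 11975 genes passed, and DESeq2 called 177 genes and no member. Irf8 was the member with the largest difference. It gave 3 counts over the 3 Thy1.1+ libraries (0.593, 0 and 0 CPM) and 42 counts over the 3 Thy1.1- libraries (2.07, 2.49 and 2.62 CPM), a ratio of 14.2 (95% counting interval 4.53 to 71.5). The groups did not overlap. The labels do not say that replicate numbers pair these samples, but deviations of same-numbered libraries correlated at 0.358 to 0.618. Replicate 3 lay apart in both groups, so this correlation cannot establish pairing. With the replicate block the fit called 1286 genes and gave Irf8 -3.68 on the log2 scale (adjusted p = 0.019). The pan-leukocyte list summed to 0.533 to 5.73 CPM in Thy1.1+ and 1.09 to 2.01 CPM in Thy1.1- cells, and the endothelial list to 8.30 to 19.2 CPM and 28.3 to 62.2 CPM, and their part in the Irf8 difference was not tested. Irf1, Irf2, Irf3, Irf5, Irf7 and Irf9 overlapped between the groups, and Irf4 was too low to test.

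In whole tibialis anterior at day 7, none of the 8 genes was called between aCxcl5 and IgG by edgeR's quasi-likelihood test (0.03% of all genes called) or by DESeq2, and 2 of the 8 had an unadjusted p under 0.05 (5.77% of all genes). Irf8 was 41.6, 44.1 and 61.3 CPM with aCxcl5 and 30.0, 37.1 and 26.9 CPM with IgG (0.63 ± 0.19, adjusted p = 0.79), and Irf5 38.4, 42.2 and 61.1 CPM against 35.6, 35.7 and 31.6 CPM (0.46 ± 0.19, adjusted p = 0.84). All aCxcl5 libraries were above all IgG libraries in these 2 genes. The pan-leukocyte list had the same order, at 529 to 869 CPM against 434 to 509.6 CPM, and so did the macrophage list, at 1806 to 2664 CPM against 1352 to 1779 CPM, and the dendritic cell list, at 847 to 1439 CPM against 803 to 834 CPM. The B cell list was 543 CPM in aCxcl5 replicate 3 and 51.1 to 72.7 CPM in the other 5 libraries, and the neutrophil list 116 CPM in aCxcl5 replicate 2 and 10.3 to 18.6 CPM in the others. Replicate 3 held the highest Irf8 and Irf5, and without it their differences were 0.45 and 0.24 (adjusted p = 0.91 for each). The part of these cells in the difference was not tested.

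In dystrophic muscle the IRFs of MmSCs changed with age. From 2.5 to 7 weeks, Irf1 fell from 501, 339 and 487 CPM to 39.6, 45.7 and 50.6 CPM, while Irf7 rose from 24.2, 37.4 and 34.6 CPM to 67.0, 66.3 and 60.0 CPM. The groups were far apart for Irf1 (-3.29 ± 0.17, adjusted p = 7.2e-09) and did not overlap for Irf7 (1.01 ± 0.16, adjusted p = 0.00019). In all 4 members fell and 1 rose, with 44.6% of 13160 genes called. The DMDmdx groups have no age-matched mice without the mutation here, so age and disease stage cannot be told apart.

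Irf9 fell with Irf1, from 68.9, 71.6 and 70.7 CPM to 28.6, 31.5 and 34.0 CPM (-1.17 ± 0.13, adjusted p = 1.0e-05), the opposite direction to Irf7. Irf2 fell from 43.4, 33.9 and 40.6 CPM to 22.6, 18.8 and 24.4 CPM (-0.84 ± 0.16, adjusted p = 0.00077), and Irf8 from 12.8, 13.7 and 11.1 CPM to 7.69, 2.15 and 6.21 CPM (-1.22 ± 0.36, adjusted p = 0.013). Irf3, Irf4 and Irf5 overlapped between these ages. The macrophage list summed to 26.6 to 43.0 CPM at 2.5 weeks and 13.8 to 17.9 CPM at 7 weeks, the endothelial list to 380.1 to 414 CPM and 50.3 to 59.8 CPM, and the pan-leukocyte list to 1.02 to 2.74 CPM and 2.30 to 4.85 CPM. The B cell list summed to 23.95 to 41.7 CPM and 333 to 365 CPM, with Ms4a1 at 0 at both ages. Their part in these changes was not tested.

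At 12.5 weeks, with 2 libraries, Irf1 was 79.4 and 65.2 CPM, below 2.5 weeks by -2.61 ± 0.19 (adjusted p = 3.2e-07, 26.3% of all genes called). Irf7 at 59.9 and 53.0 CPM stood above 2.5 weeks by 0.82 ± 0.18 (adjusted p = 0.0042) and was lost without 12.5 weeks replicate 1 (adjusted p = 0.074). Irf9 (-0.61 ± 0.15) was lost without the same library (adjusted p = 0.13). Irf8 (-1.32 ± 0.43) was lost without 2.5 weeks replicate 1 or either 12.5 weeks library (adjusted p 0.057 to 0.21). Irf4 and Irf2 did not pass, and did without 12.5 weeks replicate 2 (Irf4, adjusted p = 0.046) or 2.5 weeks replicate 2 (Irf2, adjusted p = 0.044). Between 7 and 12.5 weeks (5.9% of all genes called, 3.52% upward), Irf1 (0.68 ± 0.18, adjusted p = 0.041) and Irf9 (0.56 ± 0.15, adjusted p = 0.045) were called upward, and both were lost on leaving out any one of the 5 libraries (adjusted p 0.066 to 0.39).

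**Figure D5:**
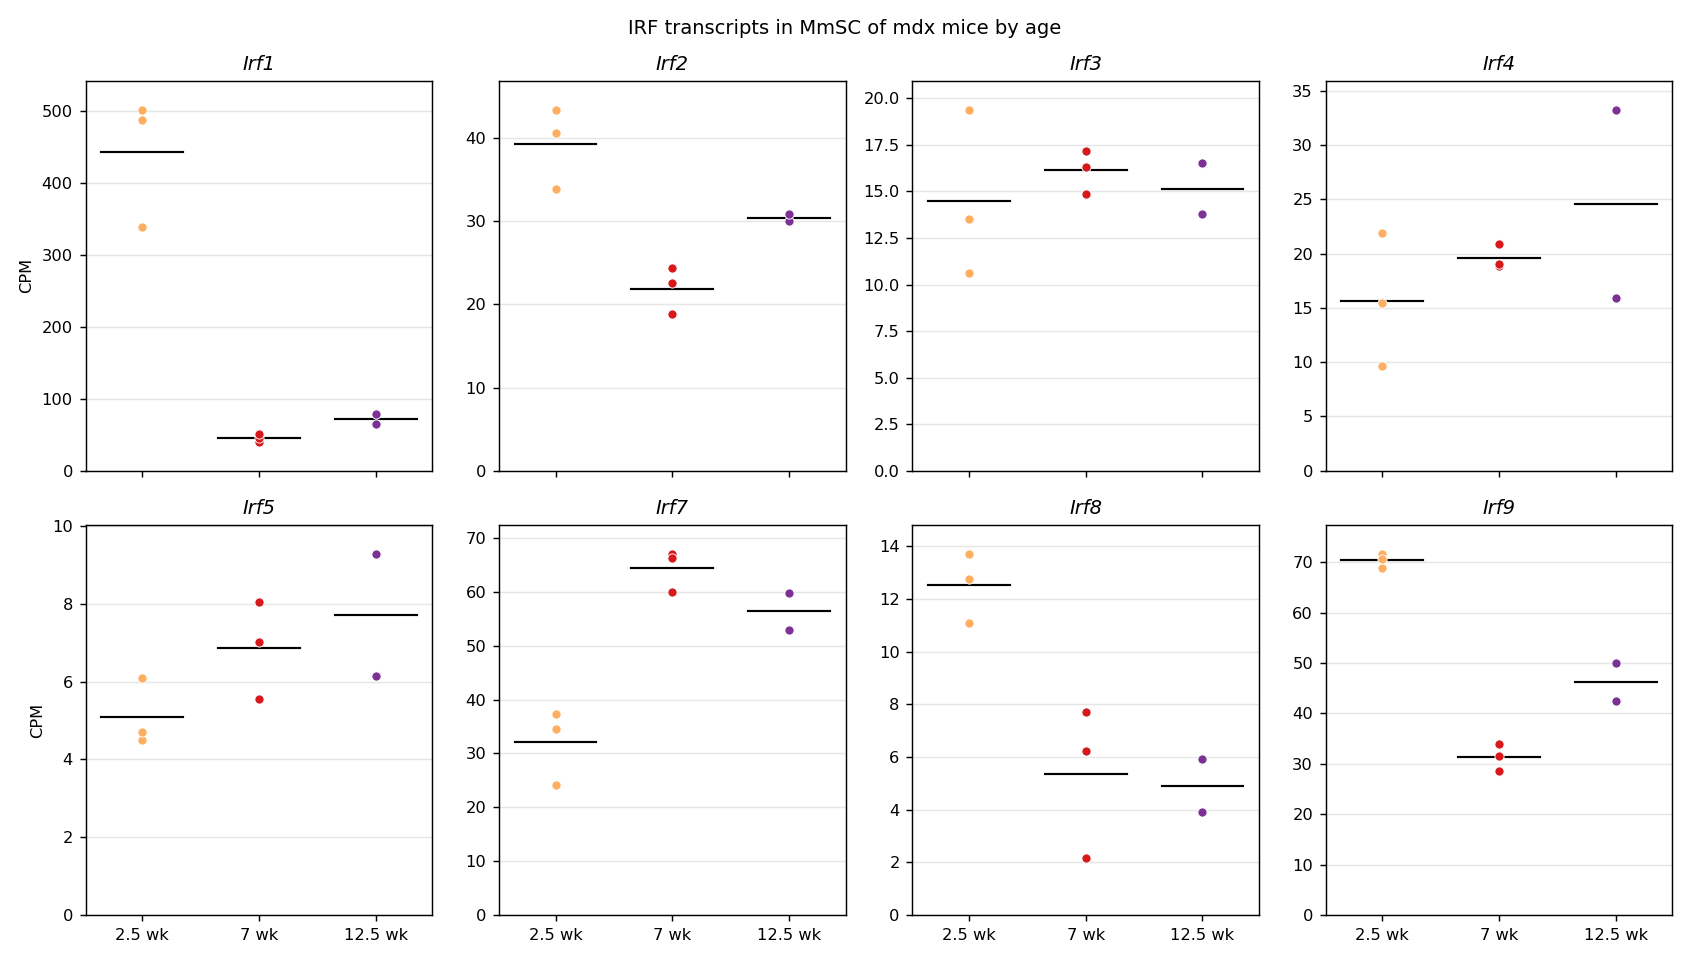
Level of each IRF transcript in MmSCs of DMDmdx mice, in CPM (vertical axis, linear), at 2.5, 7 and 12.5 weeks of age. Points are libraries and bars are means. Irf1 at 2.5 weeks (339 to 501 CPM) lies above all later libraries, Irf9 is highest and Irf7 lowest at 2.5 weeks.

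The target lists were read at the same ages, where 44.6% of all genes were called. Of 17 ISGF3 targets tested between 2.5 and 7 weeks, 7 rose and 2 fell, and of 14 GTPase and chemokine targets 2 rose and 7 fell. The median log2 change was 0.14 in the first list and -0.90 in the second, beside -0.02 over all genes, and the ISGF3 share called was near the background. Oas1a, an activator of RNase L, rose from 0.535 to 13.3 CPM (4.59 ± 0.43) and Bst2 from 9.94 to 58.8 CPM (2.56 ± 0.15). Irgm1, an immunity-related GTPase, fell from 244 to 44.2 CPM (-2.46 ± 0.16) and Cxcl10 from 33.8 to 7.83 CPM (-2.10 ± 0.34). Stat2 fell with Irf9, from 117 to 32.4 CPM (-1.85 ± 0.17). Of 13 antigen presentation genes 8 rose and 2 fell.

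Loss of Il1b was accompanied by 1 call among the 7 IRFs tested (1.21% of 12102 genes called, 0.0909% downward). Irf4 was 16.0, 16.0 and 14.1 CPM in Il1b-KO and 24.8 and 36.4 CPM in Il1b-WT MmSCs 1 day after cardiotoxin (-1.001 ± 0.19, adjusted p = 0.04). The groups did not overlap, but the call was lost without any of the 3 Il1b-KO libraries or Il1b-WT replicate 2 (adjusted p 0.18 to 0.21), and with the replicate block (adjusted p = 0.12). Irf1, 1 of the 6 members raised by injected Il-1b in uninjured mice, was 41.6, 34.0 and 41.1 CPM against 28.0 and 40.5 CPM (0.18 ± 0.17, adjusted p = 0.77). Irf5 was 17.5, 10.6 and 10.53 CPM against 8.09 and 8.39 CPM and did not pass (0.65 ± 0.28, adjusted p = 0.39). Irf8 was 0.749 to 1.91 CPM in all 5 libraries, too low to test.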

How the data were processed

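RNA-seq was measured in 70 libraries of sorted mouse muscle cells or whole muscle. The authors deposited raw counts per gene in 1 table. Per the submitters' processing notes, STAR 2.7.3a, featureCounts and the build mm10 (GRCm38) were used. For the featureCounts version and the strand setting, no source used here gives a value. Groups were taken from the labels. The members and gene lists were chosen with earlier results of these data known. Pathway genes named are among the 4 with the smallest p of a list in a comparison, except Gbp5 after Osm and Bst2 and Cxcl10 in injured MmSCs, which were chosen after their values were seen. Genes of like pattern are among the 3 with the highest r.

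Each experiment was fitted separately with edgeR 4.0.16 in R 4.3.3 (TMM scaling, filterByExpr with a minimum count of 10, 1 coefficient per group, quasi-likelihood F-test), and p-values were adjusted by Benjamini-Hochberg over all genes tested, with 0.05 as the threshold. CPM were scaled by TMM within an experiment and are not comparable between experiments. The SE was taken as the size of the log2 change over the root of the F statistic. A limit of 3 counts in each library stood in for groups at 0, and counting intervals are 95% and cover counting error only. Genes tested numbered 11975 to 16374 per experiment, and library totals of 2252373 to 8408842 counts set the precision. Scripts were tested on simulated data. Deviations of same-numbered libraries correlated most in the Il-6 reporter comparison, at 0.358 to 0.618. The labels do not say that replicate numbers pair samples. Alternatives were DESeq2 1.42.0, its size factors, no filter on low counts, a replicate block, a fit of the compared groups alone and leaving out each library. Some items are not reported here.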

Additional observations from a re-analysis of the deposited data

Results flagged for a closer look

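Each value is a log2 term that tested a difference between effects by edgeR's quasi-likelihood test, and all passed an adjusted p of 0.05. Of 24 gene tests of cytokine interactions 5 passed, and of 24 tests of injury between populations 6 passed. Of all genes, 15.8%, 5.91% and 2.56% were called for Osm with Il-1b, TNFa and Il-17A. For MmSCs minus CD31+ cells, CD45+ cells and MuSCs the shares were 12.5%, 25% and 7.64%. Many of the member calls were lost on leaving out single libraries, as given above.

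For Osm with Il-1b, the pair departed from the sum of the single effects by -1.09 for Irf3, 2.58 for Irf5 and -1.23 for Irf7. For Osm with TNFa the terms were -0.76 for Irf3 and 2.66 for Irf5. Irf5 lay at 1.35 CPM on average after Osm and at 17.2 and 20.2 CPM after the pairs with Il-1b and TNFa, near the 17.3 CPM of PBS.

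The response to injury in MmSCs minus that in CD31+ cells was -7.99 for Irf4, -2.91 for Irf5 and -2.82 for Irf8. The Irf4 size is fitted against CD31+ libraries at 0 and is no bound, and the Irf5 term was -0.91 without CD31+ injured replicate 1. MmSCs minus CD45+ cells gave -0.89 for Irf1, -0.91 for Irf7 and -0.78 for Irf9.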

How the results depend on the processing

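Among results called under the main settings or under the alternative, none changed direction. Members called per comparison moved by over 1.5 times in these cases, where the cause was not tested. With no filter on low counts, 1 was called for Il-17A (0 before), 4 for Osm+Il-1b against Il-1b (2), 1 for Osm+Il-17A against Osm (0), 5 for the Osm and Il-1b interaction (3), 1 for that with TNFa (2) and 2 for that with Il-17A (0). The same setting gave 2 for injury in MmSCs (5), 1 for MmSCs minus MuSCs (0), 1 for the Thy1.1 comparison (0) and 1 for 12.5 against 7 weeks (2). DESeq2's Wald test called 1 for Osm+Il-17A against Osm, 1 for its interaction and 1 for 12.5 against 7 weeks. A fit of the compared groups alone called 1 for Il-17A, 1 for the Osm and Il-17A interaction and 3 for injury in MmSCs. The replicate block called 1 for Thy1.1 (0), 1 for 12.5 against 7 weeks (2) and 0 for Il1b-KO (1). Leaving out 1 library at a time gave 1 to 2 for Il-1b against TNFa, 0 to 1 for Il1b-KO, 0 to 1 for Osm+Il-17A against Osm, 4 to 7 for Osm+Il-17A, 2 to 4 for Osm+TNFa against Osm and 2 to 6 for TNFa. It gave 1 to 2 for injury in CD45+ cells, 2 to 5 in MmSCs, 3 to 4 in MuSCs, and 0 to 3 for MmSCs minus CD45+ cells. It gave 0 to 1, 1 to 5 and 0 to 1 for the interactions of Osm with Il-17A, Il-1b and TNFa, 1 to 5 for 12.5 against 2.5 weeks and 0 to 0 for 12.5 against 7 weeks. Over all genes, the Thy1.1 comparison went from 0 calls to 360 with no filter, 177 by DESeq2 and 1286 with the replicate block.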

Other observations

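MmSCs 1 day after cardiotoxin were measured in 2 experiments. In unscaled CPM, Irf3 averaged 79.2 in the compartment experiment and 18.7 in Il1b-WT mice, and Irf4 2.51 and 30.5. Irf1 averaged 74.7 and 34.1 CPM. Of 9346 genes with at least 10 CPM in either set, 40.2% were over 2-fold apart and 9.87% over 4-fold.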
